A study of Mus musculus with 56 samples.

Results

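The genes described here are 35 members of the machinery that repairs bulky DNA adducts, that copies past them, or that repairs oxidised, alkylated or mispaired bases. They were chosen by name from textbook pathways, with earlier results of these data known. Each was read through the array probe whose RefSeq accession gave the gene's symbol. A probe was found for 35 of 35 members among the 20018 genes that could be named on the array. Where a gene had several probes (6 members), the probe with the highest mean Cy5 signal was taken, and the same probe was chosen in all 3 tissues for 35 of 35 members.

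The animals were male MutaMouse adults of about 14 weeks, and RNA was measured in lung, liver and forestomach. MutaMouse is a transgenic strain that carries a recoverable bacterial lacZ gene for scoring mutations. Mice were gavaged daily for 28 days with the vehicle, olive oil (D0), or with chrysene dissolved in it at 17.5 (D1), 50 (D2) or 150 mg/kg-bw/day (D3), and tissues were taken 72 h after the last dose. There were 5, 5, 3 and 5 lung arrays in D0 to D3, and 5, 5, 4 and 5 arrays each for liver and forestomach, 56 in all, with 1 mouse per array. The same mice gave the 3 tissues, except that D2 mouse 11 had no lung array. Every value below is a log2 ratio of sample RNA (Cy5) to one universal mouse reference RNA pooled from 11 cell lines (Cy3), so it ranks samples for a gene but does not rank genes.

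Chrysene is a polycyclic aromatic hydrocarbon that binds the aryl hydrocarbon receptor, and its metabolites form bulky adducts on DNA. Nucleotide excision repair removes such adducts: XPC and the DDB1-DDB2 complex find them, TFIIH opens the helix, XPA and RPA verify the site, ERCC1-ERCC4 and ERCC5 cut the strand, and a polymerase and a ligase close the gap. Adducts that remain when the replication fork arrives are bypassed by translesion polymerases of the Y family and by REV3L, while base excision repair and MGMT deal with small base lesions.

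The 3 tissues carried the transcripts their labels name. On every lung array 7 of 7 alveolar type 2 markers were above background, on every liver array 8 of 8 hepatocyte markers, and on every forestomach array 8 of 10 keratinocyte markers. The share of probes above background was 49.0 to 56.7% in lung, 34.5 to 46.4% in liver and 18.9 to 51.7% in forestomach, where the 7 arrays of slide 3 (40.4 to 51.7%) stood above the other 12 (18.9 to 34.9%). Each tissue was hybridised on its own 3 slides, so tissue and slide cannot be told apart. The D3 lung arrays of mice 17 and 19 stood apart from all other lung arrays: 10 of 10 skeletal muscle genes were measured, and their mean lay 6.64 and 6.47 above the D0 mean, against -0.030 to 0.11 in the other D3 lungs and -0.17 to 0.16 in D0. The keratinocyte list lay 3.13 and 3.43 above D0 on the same 2 arrays. On every lung array 2 of 10 skeletal muscle and 3 of 10 keratinocyte genes were above background, so these distances are taken in part against dim spots. On mice 17 and 19 the adipocyte list lay 2.24 and 2.58 above D0 and the smooth muscle list 1.34 and 0.98. The B and T cell lists lay 1.25 and 1.10 above D0 on mouse 19, and at 0.20 and -0.37 on mouse 17. The D2 lung of mouse 13 also had the adipocyte list at 2.28. Lung differences of members that mice 17 and 19 moved by more than 0.1 or turned in sign are therefore also given without those 2 mice. In forestomach the glandular stomach list (10 of 10 genes measured) ran from -3.41 to 2.85 around the D0 mean within D0 and from -3.50 to 2.94 within D3. In bulk tissue, fewer cells of a type and less RNA per cell cannot be told apart.

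The promoters of 4 members are printed because the results below turn on them: Ercc5 and Gtf2h1 had the lowest unadjusted p-values at D3 in lung, and Mgmt and Ogg1 had the highest r between liver and forestomach of the same mice. The 250 bases before the RefSeq start are shown on the gene's strand, 5′ to 3′, from build GRCm38.p6, with the core letters of the aryl hydrocarbon receptor element, GCGTG or its reverse complement CACGC, in capitals. Ercc5 lies at chr1:44147494-44147743, Gtf2h1 at chr7:46795844-46796093, Ogg1 at chr6:113326726-113326975 and Mgmt at chr7:136894336-136894585, all on the plus strand.
Ercc5: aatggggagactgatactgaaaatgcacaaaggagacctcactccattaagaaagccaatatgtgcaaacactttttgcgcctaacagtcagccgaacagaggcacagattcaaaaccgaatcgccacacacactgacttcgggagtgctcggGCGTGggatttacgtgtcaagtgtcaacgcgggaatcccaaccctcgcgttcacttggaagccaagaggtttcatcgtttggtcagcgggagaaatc
Gtf2h1: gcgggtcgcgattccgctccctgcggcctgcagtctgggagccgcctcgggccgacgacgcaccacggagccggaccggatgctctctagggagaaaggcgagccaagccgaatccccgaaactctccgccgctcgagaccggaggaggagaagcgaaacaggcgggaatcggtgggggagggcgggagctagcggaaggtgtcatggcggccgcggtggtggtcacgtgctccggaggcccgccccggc
Ogg1: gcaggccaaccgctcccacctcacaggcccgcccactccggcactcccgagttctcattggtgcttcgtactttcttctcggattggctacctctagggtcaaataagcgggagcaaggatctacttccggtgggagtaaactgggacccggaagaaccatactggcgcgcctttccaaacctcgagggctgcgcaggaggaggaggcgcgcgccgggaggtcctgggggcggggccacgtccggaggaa
Mgmt: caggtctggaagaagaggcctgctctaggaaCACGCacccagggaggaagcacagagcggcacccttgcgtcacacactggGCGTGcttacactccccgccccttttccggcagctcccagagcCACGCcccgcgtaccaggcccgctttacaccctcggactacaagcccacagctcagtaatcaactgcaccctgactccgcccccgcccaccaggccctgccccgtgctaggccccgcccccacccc
The core was found once before Ercc5, 3 times in the Mgmt window printed, and not in the windows before Gtf2h1 and Ogg1 or before the second Mgmt start, at chr7:136912848-136913097, which is not printed. RefSeq promoters were matched for 29 of 35 members, and 17 of the 29 held the core in at least 1 window. Counted by window, as some genes have several starts, 19 of 35 member windows held it, beside 28.2% of all 32851 windows of this length, and a match is a description of the letters only.

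The first question was whether subchronic chrysene changed the level of any repair transcript. No member passed the limits used (a change of 1.5-fold or more with a limma p that, adjusted over every probe tested in the tissue, did not exceed 0.05). The count was 0 of 35 members in lung, 0 of 34 in liver and 0 of 35 in forestomach at each of D1, D2 and D3, and 0 for a linear dose trend. Past the same limits at D3 were 0.127% of all probes tested in lung, 0% in liver and 0.00728% in forestomach, and 0% in each tissue at D1 and D2. For the trend it was 0.169% in lung, 0% in liver and 0.04% in forestomach. The lowest adjusted p of a member at D3 was 0.151 in lung, 0.9998 in liver and 0.374 in forestomach. Without mice 17 and 19 the lung count stayed 0.

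At an unadjusted p of at most 0.05, D3 differed from D0 in 6 lung members, 1 higher (Mutyh) and 5 lower (Ercc5, Gtf2h1, Ercc4, Polh and Cetn2), against 6.05% of all lung probes higher and 10.1% lower. In liver it was 0 of 34, against 2.46% higher and 2.33% lower. In forestomach it was 5, with Lig3, Ercc2, Ercc5 and Gtf2h1 higher and Ercc1 lower, against 5.45% and 3.79%. These counts moved with the settings: the forestomach count was 0 with median centring, 2 with only the D0 and D3 groups or with probes above background on every array, and 1 without mouse 20, and the lung count was 2 with the array's column on the slide as a covariate. At D1 the count was 1 in lung, 0 in liver and 0 in forestomach, against 5.88%, 3.61% and 4.16% of all probes. At D2 it was 4, 1 and 4, against 6.12%, 3.79% and 7.53%, and for the trend 6, 2 and 6, against 17.3%, 5.43% and 9.18%. With each array centred on its median in place of the intensity correction, the lung count at D1 was 20, all higher, against 32.8% of all probes higher and 0.283% lower in the same fit, and the lowest adjusted p of a member was 0.0736 (limma). The median D1 difference was then 0.31 over members and 0.22 over all probes. Without mice 17 and 19 the lung count at D3 was 3 (Xpa and Polk higher, Ercc4 lower), against 4.94% of all probes higher and 4.93% lower, so of the 6 members counted with all mice only Ercc4 was counted again. Leaving out these mice moved a member by a median of 0.051 and at most 0.31 (Polk), and 9 of 35 differences changed sign, each of them 0.24 or less in size before and after. In no tissue did the D3 values of a member lie wholly outside its D0 values, where 2.61% of lung, 0.737% of liver and 1.38% of forestomach probes did.

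A further question was how tightly the size of a change could be bounded. The 95% interval of D3 minus D0 lay inside a 1.5-fold change for 33 of 35 members in lung (87% of all probes tested), 33 of 34 in liver (94.1%) and 16 of 35 in forestomach (56.2%). These counts depend on the model: with the array's column on the slide as a covariate, which matched the dose step on 50 of 56 arrays, they were 3, 29 and 2, and with median centring 28, 22 and 2, while with slide as a block 29 forestomach members lay inside the interval. Dose and column can hardly be told apart, so differences given below with column as a covariate are loosely bounded. The median distance from the estimate to its interval bound was 0.18 in lung, 0.18 in liver and 0.37 in forestomach on the log2 scale. The median member difference at D3 was -0.043 in lung, 0.025 in liver and 0.11 in forestomach, beside -0.026, -0.0073 and -0.0015 over all probes tested. Polh was not tested in liver, where its probe was above background on 2 of 19 arrays. In forestomach, 20 of 35 members were above background on all 19 arrays and 6 on 9 or fewer.

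**Figure D1:**
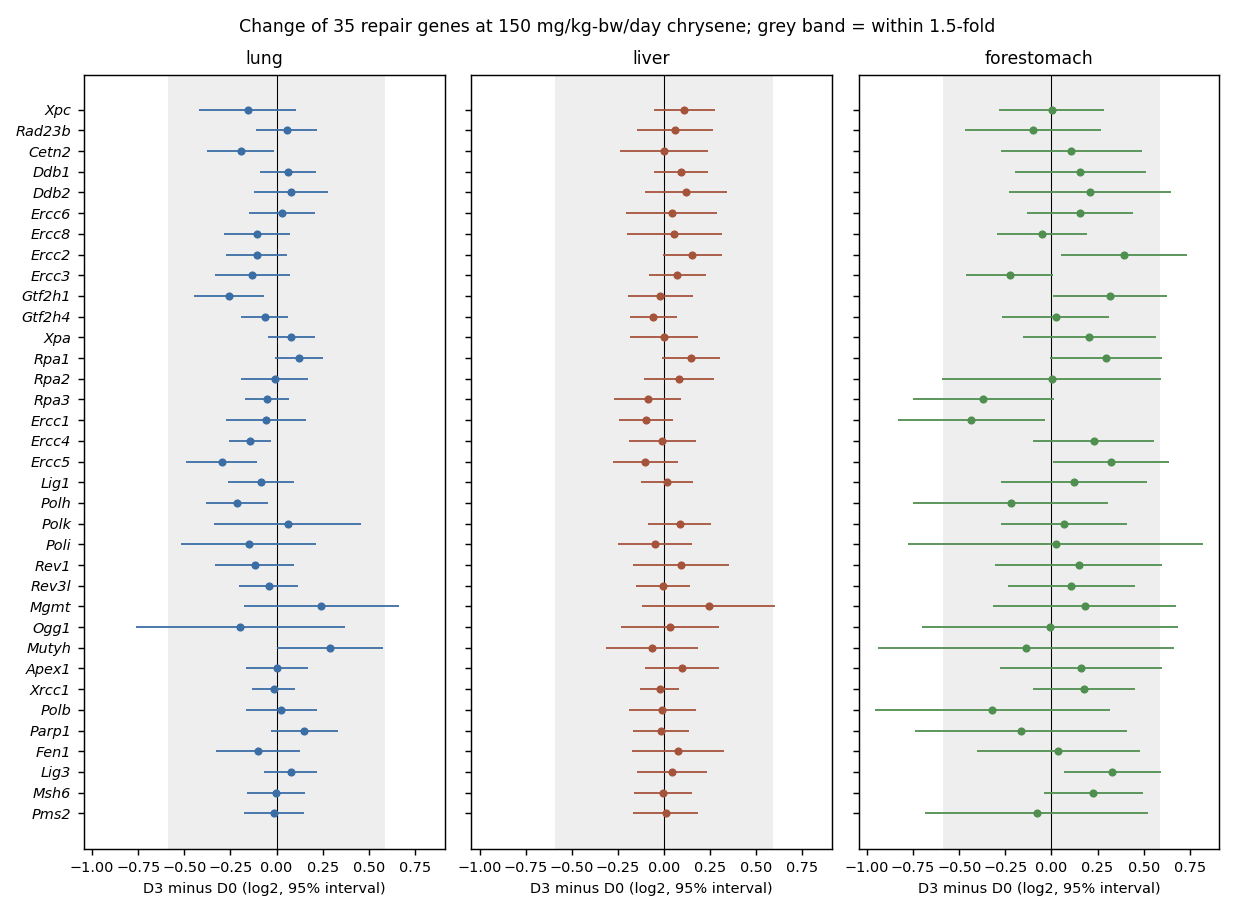
Difference between D3 (150 mg/kg-bw/day) and D0 in log2 units for the 35 members in lung, liver and forestomach, as limma estimates (points) with 95% intervals (lines), and the range within 1.5-fold in grey. Intervals lie inside the grey band for 33 members in lung, 33 in liver and 16 in forestomach, and Polh has no liver estimate.

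Damage recognition is done by XPC with its partners RAD23B and CETN2, and by DDB1 and DDB2. Of these 5 genes, 0 passed the limits in any tissue, and their median D3 difference was 0.055 in lung, 0.093 in liver and 0.11 in forestomach. Ddb2, a p53 target in human cells that helps XPC onto damaged chromatin, gave lung values of -1.47, -1.49, -1.23, -1.08 and -1.35 in the 5 D0 mice and -1.20, -1.25, -1.16, -1.40 and -1.22 in the 5 D3 mice. The groups overlapped, with a difference of 0.078 (SE 0.095, 95% interval -0.12 to 0.28). At D2 its lung values were -0.97, -1.16 and -1.12, a difference of 0.24, the highest of the 5 genes. At D2 in lung 1 of the 5 genes had an unadjusted p of at most 0.05 (lowest adjusted p 0.804, limma). In liver, Ddb2 was -1.36, -1.09, -1.10, -1.27 and -1.505 in D0 and -1.34, -0.95, -1.06, -0.998 and -1.38 in D3, again overlapping, with a difference of 0.12 (SE 0.11, 95% interval -0.10 to 0.34). Its lung difference at D3 was 0.13 without mice 17 and 19 and turned to -0.054 with column as a covariate. In forestomach the D0 values spread widely (-0.84, -1.68, -0.75, -0.32 and -1.48), the D3 values (-0.79, -0.67, -0.70, -1.08 and -0.78) lay inside that spread, and the probe was above background on 11 of 19 arrays.

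Xpc, the damage sensor of global repair, read 0.85, 1.28, 1.11, 0.94 and 0.91 in D0 lungs and 1.12, 0.60, 0.96, 0.51 and 1.11 in D3 lungs. The 2 low D3 values, 0.60 and 0.51, belong to mice 17 and 19, and without them the difference moved from -0.16 to 0.048. In liver, Xpc was 0.42, 0.57, 0.26, 0.48 and 0.33 in D0 and 0.49, 0.70, 0.53, 0.27 and 0.62 in D3, a difference of 0.11 (SE 0.080, 95% interval -0.057 to 0.28). In forestomach it was -0.24, -0.33, -0.10, 0.32 and -0.36 in D0 and 0.012, -0.26, -0.37, -0.20 and 0.12 in D3, with overlapping groups. With column as a covariate the lung difference turned to 0.19. Among its partners, Rad23b differed by 0.055, 0.060 and -0.097 and Ddb1 by 0.062, 0.093 and 0.16 in lung, liver and forestomach. The lung values without mice 17 and 19 were -0.046 for Rad23b, which turned, and 0.15 for Ddb1. Cetn2, a centrin of the XPC complex, differed by -0.19 in lung (unadjusted p = 0.0365) and by -0.15 without mice 17 and 19.

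ERCC6 and ERCC8, the proteins affected in Cockayne syndrome, start repair where RNA polymerase stalls at a lesion. Their D3 differences ran from -0.11 (Ercc8 in lung) to 0.15 (Ercc6 in forestomach), and 0 of the 2 genes passed the limits in any tissue. Ercc6 was above background on 6 of 19 forestomach arrays.

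TFIIH holds the helicases ERCC2 and ERCC3 and the core subunits GTF2H1 and GTF2H4, and serves transcription as well as repair. Gtf2h1 in lung was -0.067, -0.18, -0.14, -0.12 and -0.0053 in D0, -0.16, -0.31, -0.40, -0.35 and -0.35 in D1, -0.41, 0.022 and -0.11 in D2 and -0.23, -0.56, -0.12, -0.47 and -0.42 in D3. Below the D0 range lay 4 of 5 D1 mice, 1 of 3 D2 mice and 4 of 5 D3 mice, so the values were not ordered by dose. The D3 difference was -0.26 (SE 0.090, 95% interval -0.45 to -0.069), with an unadjusted p of 0.0103, an adjusted p of 0.195 (limma), an exact permutation p of 0.0317 and -0.43, -0.17 and -0.26 within slides 1, 2 and 3, each of which held 1 or 2 arrays of either group. Without mice 17 and 19 it was -0.16, and with column as a covariate it turned to 0.45 (adjusted p = 0.9999, limma). In liver Gtf2h1 differed by -0.020, from -0.40 ± 0.13 to -0.42 ± 0.12 (SD, n = 5 each). In forestomach it was 0.094, 0.54, 0.052, 0.25 and 0.43 in D0 and 0.69, 0.22, 0.37, 0.78 and 0.89 in D3, a difference of 0.32 (SE 0.15, 95% interval 0.0073 to 0.63) with an adjusted p of 0.526 (limma).

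Ercc2, the helicase that is mutated in xeroderma pigmentosum group D, read -1.03, -1.33, -0.32, -0.79 and -1.21 in D0 forestomachs and -0.78, -0.38, -0.51, -0.75 and -0.29 in D3 forestomachs. The lowest values were D0 mice, while D0 mouse 3 (-0.32) lay near the top of the D3 range. The difference of 0.39 (SE 0.16, 95% interval 0.050 to 0.73) had an unadjusted p of 0.0271 and an adjusted p of 0.437 (limma), and was 0.45, 0.040 and 0.75 within slides 1, 2 and 3. In liver Ercc2 had the lowest unadjusted p of any member (0.0578), with D0 values of -0.57, -0.46, -0.37, -0.51 and -0.56 and D3 values of -0.27, -0.46, -0.24, -0.30 and -0.43. In lung the difference was -0.11. Ercc3 differed by -0.13, 0.072 and -0.23 and Gtf2h4 by -0.064, -0.057 and 0.023 in lung, liver and forestomach. Ercc3 in lung was -0.0085 without mice 17 and 19.

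Among the 7 verification and incision genes (Xpa, Rpa1, Rpa2, Rpa3, Ercc1, Ercc4 and Ercc5), 0 passed the limits. Ercc5 encodes the nuclease that cuts 3′ of the lesion, and its lung values were 0.20, 0.15, 0.088, 0.026 and 0.084 in D0, 0.075, 0.16, 0.059, 0.044 and 0.12 in D1, -0.033, 0.033 and -0.083 in D2 and -0.047, -0.35, -0.31, -0.41 and 0.18 in D3. D3 mouse 20 (0.18) lay inside the D0 range, while the other 4 D3 mice lay below all D0 mice. The difference was -0.30 (SE 0.090, 95% interval -0.49 to -0.11), with the lowest unadjusted p of any member (0.00417), an adjusted p of 0.151 (limma) and an exact permutation p of 0.0556. Within slides it was -0.52, -0.39 and -0.020, and without mice 17 and 19, whose values were -0.35 and -0.41, it was -0.17. With 1 mouse left out at a time it ran from -0.39 to -0.24, with an adjusted p from 0.0469 to 0.350 (limma). It stayed under the fold limit each time. In liver Ercc5 went from 0.28 ± 0.079 to 0.18 ± 0.16 (SD, n = 5 each). In forestomach it was 0.17, -0.21, 0.025, 0.028 and 0.30 in D0 and 0.51, 0.38, 0.24, 0.13 and 0.68 in D3, a difference of 0.32 (SE 0.15, 95% interval 0.0084 to 0.64) with an adjusted p of 0.524 (limma).

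Ercc4, the catalytic subunit of the nuclease that cuts 5′ of the lesion, was 0.11, 0.11, -0.044, 0.068 and -0.011 in D0 lungs and -0.097, -0.16, -0.0083, -0.069 and -0.15 in D3 lungs. The difference was small, -0.14 (SE 0.053, 95% interval -0.26 to -0.032), with an unadjusted p of 0.0148 and an adjusted p of 0.219 (limma), and -0.13 without mice 17 and 19. It turned to 0.081 with median centring. It differed by -0.0086 in liver and 0.23 in forestomach. Its partner Ercc1 gave forestomach values of 0.30, -0.54, -0.35, 0.23 and -0.12 in D0 and -0.28, -0.34, -0.34, -0.83 and -0.85 in D3, with 2 D3 mice (-0.83 and -0.85) below the D0 range and the other 3 inside it. The difference of -0.43 (SE 0.19, 95% interval -0.83 to -0.035) had an adjusted p of 0.475 (limma) and was -0.61, -0.28 and -0.51 within slides 1, 2 and 3. With median centring it turned to 0.045. In lung and liver Ercc1 differed by -0.058 and -0.098.

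Rpa1, the large subunit of the protein that coats single-stranded DNA, was -1.92, -1.92, -1.72, -1.93 and -1.95 in D0 livers and -1.69, -1.75, -1.56, -1.77 and -1.93 in D3 livers. The groups overlapped, and the difference was 0.15 (SE 0.076, 95% interval -0.013 to 0.31) with an unadjusted p of 0.0705. Its differences in lung and forestomach were 0.12 and 0.30. Rpa2, Rpa3 and the scaffold gene Xpa differed by -0.37 (Rpa3 in forestomach) to 0.21 (Xpa in forestomach) over the 3 tissues. Xpa in lung was 0.081 with all mice and 0.16 without mice 17 and 19, while Rpa2 turned from -0.010 to 0.017. Lig1, the ligase that seals the patch and joins Okazaki fragments, differed by -0.084, 0.016 and 0.12 in lung, liver and forestomach.

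**Figure D2:**
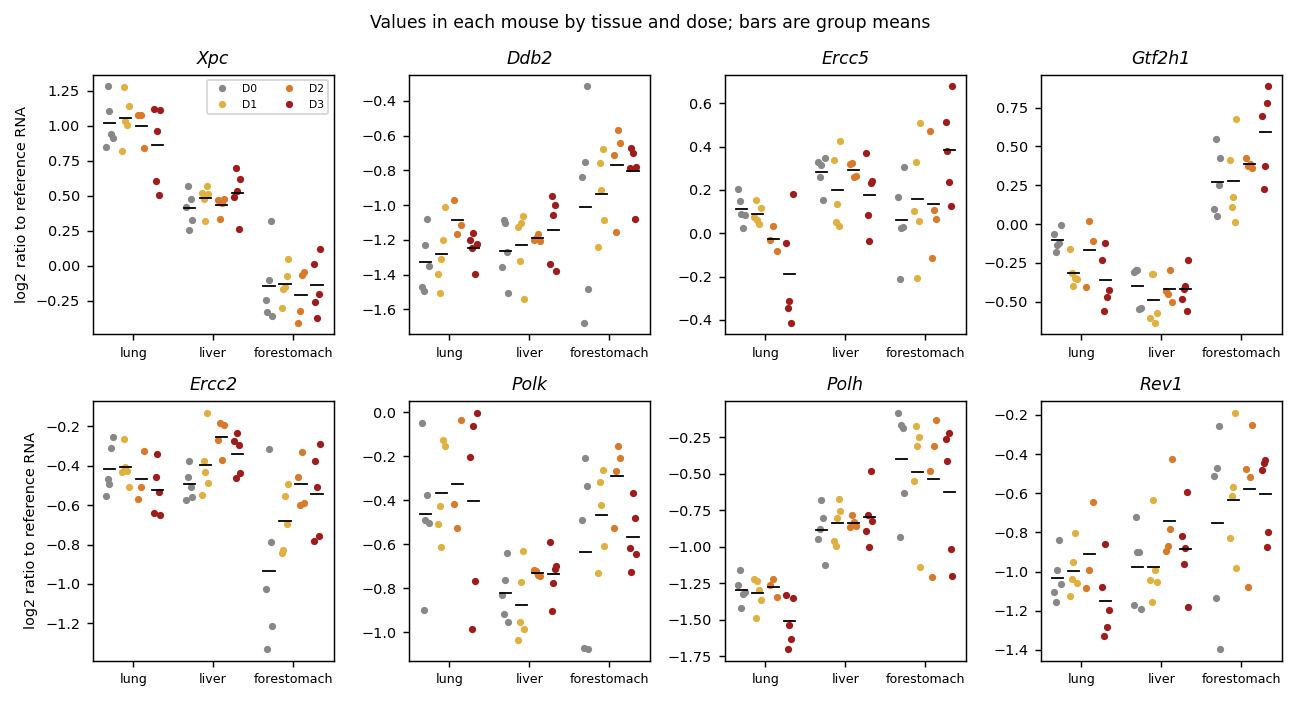
Log2 ratio to reference RNA in every mouse for 8 members, by tissue and dose group (D0 grey, D1 yellow, D2 orange, D3 red), with group means as bars. Ercc5 and Gtf2h1 lie lower in D3 than in D0 lungs and higher in D3 than in D0 forestomachs, and neither difference passed the adjusted limit.

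Translesion synthesis was represented by Polh, Polk, Poli, Rev1 and Rev3l, of which 0 of 5 passed the limits in lung, 0 of 4 in liver and 0 of 5 in forestomach. POLK bypasses adducts of polycyclic aromatic hydrocarbons on guanine. Polk values in lung were -0.051, -0.90, -0.49, -0.38 and -0.50 in D0 and -0.20, -0.99, -0.063, -0.77 and -0.0021 in D3. The 2 lowest D3 values came from mice 17 (-0.99) and 19 (-0.77), and the difference was 0.060 (SE 0.19, 95% interval -0.34 to 0.46) with them and 0.37 without them (unadjusted p = 0.0349, adjusted p = 0.47, limma). In liver Polk was -0.83, -0.92, -0.76, -0.64 and -0.95 in D0 and -0.59, -0.91, -0.78, -0.71 and -0.70 in D3, a difference of 0.084 (SE 0.081, 95% interval -0.086 to 0.25). In forestomach the D0 values were -0.49, -1.07, -0.21, -0.34 and -1.08 and the D3 values -0.62, -0.73, -0.37, -0.48 and -0.65, with the probe above background on 9 of 19 arrays.

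Polh, the polymerase lost in the variant form of xeroderma pigmentosum, was -1.26, -1.16, -1.42, -1.33 and -1.31 in D0 lungs and -1.33, -1.70, -1.53, -1.63 and -1.35 in D3 lungs. Of the D3 values, 3 lay below all D0 values, and the difference was -0.21 (SE 0.080, 95% interval -0.38 to -0.046) with an adjusted p of 0.222 (limma) and -0.11 without mice 17 and 19. With column as a covariate it turned to 0.099. In forestomach Polh was -0.082, -0.93, -0.17, -0.19 and -0.63 in D0 and -0.26, -0.41, -0.22, -1.01 and -1.20 in D3, and in liver its probe was not tested. Rev1, the scaffold that recruits the other bypass polymerases, read -1.10, -1.15, -0.99, -0.84 and -1.06 in D0 lungs and -1.08, -1.33, -0.86, -1.28 and -1.20 in D3 lungs. Its difference was -0.12 (SE 0.10, 95% interval -0.33 to 0.095) in lung, 0.090 (SE 0.12, 95% interval -0.17 to 0.35) in liver and 0.15 (SE 0.21, 95% interval -0.30 to 0.60) in forestomach, with overlapping groups in all 3 tissues. Liver values were -1.17, -0.72, -0.90, -0.90 and -1.19 in D0 and -0.82, -0.96, -0.88, -0.59 and -1.18 in D3. Forestomach values were -0.51, -1.13, -0.47, -0.26 and -1.40 in D0 and -0.48, -0.44, -0.43, -0.88 and -0.80 in D3. Its 2 lowest D3 lung values, -1.33 and -1.28, were mice 17 and 19, and without them the lung difference was -0.014, while with column as a covariate it turned to 0.36. Poli differed by -0.15, -0.048 and 0.023, and Rev3l, the catalytic subunit of polymerase zeta, by -0.043, -0.0041 and 0.11. In lung without mice 17 and 19 the values were -0.033 for Poli and 0.029 for Rev3l, which turned.

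Mgmt, which removes alkyl groups from guanine in a single suicide reaction, had wide mouse-to-mouse spread. Its lung values were -1.84, -2.26, -2.35, -2.39 and -2.68 in D0 and -2.04, -1.76, -2.51, -1.58 and -2.42 in D3, and its liver values 0.96, 0.90, 0.72, 0.44 and 0.19 in D0 and 1.002, 0.91, 0.70, 1.07 and 0.75 in D3. In forestomach it was -0.17, -0.083, -0.65, -0.46 and -1.40 in D0 and -0.25, -0.76, -0.46, -0.16 and -0.24 in D3, and the groups overlapped in each tissue. The D3 difference was 0.24 (SE 0.20, 95% interval -0.18 to 0.66) in lung, 0.24 (SE 0.17, 95% interval -0.12 to 0.60) in liver and 0.18 (SE 0.24, 95% interval -0.32 to 0.68) in forestomach, so a 1.5-fold change lay inside the interval in each tissue. Without mice 17 and 19 the lung difference was -0.017, and with column as a covariate the liver and forestomach differences turned to -0.060 and -0.17.

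Base excision repair was represented by the glycosylase genes Ogg1 and Mutyh, the endonuclease Apex1, the scaffold Xrcc1, the polymerase Polb, the nick sensor Parp1, the flap nuclease Fen1 and the ligase Lig3. Of these 8 genes, 0 passed the limits in any tissue, and the median D3 difference was 0.014 in lung, 0.012 in liver and 0.015 in forestomach. In lung it turned to -0.064 without mice 17 and 19. Lig3 had the lowest unadjusted p of any member in forestomach (0.017, adjusted p = 0.374, limma), with -0.35, -0.17, -0.14, 0.070 and -0.22 in D0 and 0.24, 0.18, 0.45, -0.19 and 0.16 in D3. Mouse 19 (-0.19) lay inside the D0 range, the other 4 D3 mice lay above all D0 mice, and within slides the difference was 0.56, 0.49 and 0.18. The probe was above background on 2 of 5 D0 and 5 of 5 D3 forestomach arrays. Lig3 differed by 0.076 in lung and 0.044 in liver.

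Ogg1, which cuts out oxidised guanine, ranged in lung over -0.95, -1.52, -0.93, -0.79 and -1.55 in D0 and -1.53, -0.89, -0.60, -2.21 and -1.49 in D3. Its liver values were -1.01, -1.14, -0.81, -0.78 and -1.05 in D0 and -1.18, -0.66, -0.57, -1.23 and -0.99 in D3, and its forestomach values -0.59, -1.72, -0.52, -0.40 and -1.74 in D0 and -0.84, -0.52, -0.41, -1.80 and -1.43 in D3. In each tissue the groups overlapped. This spread left the difference at -0.20 (SE 0.27, 95% interval -0.76 to 0.37) in lung (-0.058 without mice 17 and 19), and at 0.033 (SE 0.13, 95% interval -0.23 to 0.30) in liver and -0.0065 (SE 0.33, 95% interval -0.70 to 0.69) in forestomach. With column as a covariate it turned to 0.28 in lung and 0.48 in forestomach. Mutyh, which removes adenine opposite oxidised guanine, differed by 0.29 (SE 0.14, 95% interval 0.0040 to 0.58) in lung (unadjusted p = 0.0472, adjusted p = 0.303, limma), by 0.28 without mice 17 and 19, by -0.064 in liver and by -0.14 in forestomach. At D2 in lung it differed by 0.45, the highest member estimate there (lowest adjusted p of a member 0.691, limma). Apex1, Xrcc1, Polb, Parp1 and Fen1 differed by -0.10 to 0.15 in lung, by -0.024 to 0.097 in liver and by -0.32 to 0.18 in forestomach. The -0.32 was Polb. Its forestomach values were 1.69, 1.30, -0.028, 1.30 and 1.48 in D0 and 1.23, 0.82, 0.84, 0.86 and 0.39 in D3. All D3 values lay above D0 mouse 3 (-0.028) and below the other D0 mice, so the size of this difference depends on mouse 3. At D2 Polb differed by -0.77 in forestomach, the lowest estimate of any member at any dose (lowest adjusted p of the 8 genes 0.593, limma). The lung values of Apex1 and Polb turned to -0.077 and -0.12 without mice 17 and 19. The mismatch repair genes Msh6 and Pms2 differed by -0.0046 and -0.014 in lung, -0.0048 and 0.0085 in liver and 0.23 and -0.080 in forestomach. Leaving out mice 17 and 19 turned both lung values, to 0.0081 and 0.016.

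A wider list of 79 other repair genes was read beside the members. Of those tested, 0 of 73 in lung, 0 of 67 in liver and 0 of 75 in forestomach passed the limits at D3. At an unadjusted p of at most 0.05, 2 were higher and 7 lower in lung, 1 higher and 0 lower in liver (2.46% and 2.33% of all probes), and 2 higher and 0 lower in forestomach (5.45% and 3.79%). The median differences were -0.012, 0.024 and -0.037. In lung the split turned to 7 higher and 3 lower, and the median to 0.041, without mice 17 and 19, against 6.05% of all probes higher and 10.1% lower with all mice and 4.94% and 4.93% without them. Rad18, which marks stalled forks for bypass, had the lowest p in lung, at -0.31 (SE 0.083, adjusted p = 0.107, limma) and at -0.22 without mice 17 and 19. Gtf2h5, a small TFIIH subunit, had the highest liver estimate at 1.15, with an SE of 0.79 and an unadjusted p of 0.160.

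Of 24 p53 targets, 1 of 22 tested passed the limits in lung at D3, and 0 of 21 in liver and 0 of 22 in forestomach. That gene was Sesn2, a stress-response gene, at -0.65 (SE 0.13, adjusted p = 0.046, limma), and without mice 17 and 19 it was -0.46 with an adjusted p of 0.215. The share of all lung probes past the limits was 0.127%. At an unadjusted p of at most 0.05, 2 targets were higher and 4 lower in lung (6.05% and 10.1% of all probes), 2 and 0 in liver (2.46% and 2.33%) and 1 and 0 in forestomach (5.45% and 3.79%), and in lung 1 and 3 without those mice (4.94% and 4.93%). The highest lung estimate was Perp, which also serves the desmosomes of stratified epithelia, at 1.44, and without mice 17 and 19, the arrays on which the keratinocyte list was raised, it was 0.082. Cdkn1a, the cell-cycle inhibitor induced by p53, differed by -0.25 in lung, -0.33 in liver and -0.33 in forestomach, and Mdm2, the p53 ubiquitin ligase, by -0.060, 0.071 and 0.066. None of these Cdkn1a and Mdm2 differences reached an unadjusted p of 0.05, but without mice 17 and 19 Mdm2 in lung turned to 0.034 and Cdkn1a in lung was -0.63 (unadjusted p = 0.0361, adjusted p = 0.475, limma). In the list of 25 proliferation genes, 0 of 24 tested in lung, 0 of 20 in liver and 0 of 24 in forestomach passed the limits.

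The second comparison asked where each repair gene stood highest without chrysene. Among the D0 mice, lung was higher than liver for 8 members and lower for 8, against 24.9% and 21.1% of all probes tested. Forestomach was higher than liver for 5 and lower for 1, against 22% and 19%, and lung was higher than forestomach for 2 and lower for 11, against 19.3% and 18.2%. Of these 11, Polh, Poli, Mutyh and Lig3 were above background on 2 of 5 D0 forestomach arrays and Parp1 on 3 of 5, so their forestomach levels rest mostly on dim spots. These directions depend on the intensity correction in the authors' ratios. With each array centred on its median instead, the median of all probes moved to 0.62 for lung minus liver, -0.17 for forestomach minus liver and 0.95 for lung minus forestomach, from 0.028, 0.040 and 0.0041. The sign was then kept by 11 of the 16 calls for lung against liver, 3 of 6 for forestomach against liver and 2 of 13 for lung against forestomach, and the split became 20 higher and 1 lower (against 40.9% and 5.69% of all probes), 0 and 3 (5.14% and 17.4%), and 29 and 0 (55.1% and 2.72%).

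On the authors' ratios Mgmt had the largest range between tissues, while with median centring its largest difference, 2.49, was below those of Xpc (2.95), Cetn2 (2.77), Rev3l (2.57) and Ercc2 (2.55). In D0 mice it was 0.64 ± 0.33 in liver, -0.55 ± 0.53 in forestomach and -2.30 ± 0.30 in lung (SD, n = 5 each), with every liver value above every forestomach and lung value. Lung minus liver was -2.95 and forestomach minus liver -1.20 on the log2 scale (adjusted p = 3.5e-17 and 3.8e-06, limma), and -1.88 and -2.49 with median centring, so liver was highest either way. The order of forestomach and lung turned with the centring, from -1.75 for lung minus forestomach to 0.62.

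Ercc1 was 0.30, -0.54, -0.35, 0.23 and -0.12 in D0 forestomachs, -1.38, -1.36, -1.32, -1.26 and -1.59 in D0 lungs and -1.79, -1.62, -1.77, -1.59 and -1.91 in D0 livers. Forestomach exceeded liver by 1.64 (adjusted p = 2.7e-15, limma). With median centring this was 0.73 and not past the limits, while lung minus forestomach was -1.29 and turned to 0.92. Lung exceeded liver by 0.35, which is under the fold limit, and by 1.65 with median centring (adjusted p = 0.0017, limma), which is past it. Fen1 was -1.57, -2.05, -1.37, -1.05 and -2.11 in forestomach, -2.59, -2.59, -2.51, -2.52 and -1.95 in lung and -3.33, -2.70, -3.01, -3.03 and -3.38 in liver. Forestomach exceeded liver by 1.46 (0.15 with median centring), lung exceeded liver by 0.66 (1.72), and lung minus forestomach was -0.80 (1.57, turned). Polb was 1.69, 1.30, -0.028, 1.30 and 1.48 in forestomach, 0.45, 0.69, 0.61, 0.80 and 0.48 in liver and -0.40, -0.11, -0.24, -0.47 and -0.27 in lung. Its lung minus liver difference of -0.90 and its lung minus forestomach difference of -1.45 turned to 0.46 and 0.60, and its forestomach minus liver difference of 0.54, under the fold limit, turned to -0.13.

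Xpc and Cetn2, partners in one complex, stood highest in lung. Xpc exceeded liver by 0.61 and forestomach by 1.16 (1.87 and 2.95 with median centring). Cetn2 exceeded liver by 1.10 (2.11 with median centring), and its difference from forestomach of 0.56 was under the fold limit, but past it with loess recomputed (0.75, adjusted p = 5.3e-06, limma) and with median centring (2.77). For Rad23b, the other partner, lung minus liver was -1.35 and lung minus forestomach -1.29 on the authors' ratios, and with median centring these were -0.068 and 1.003, neither past the limits, so its order of tissues depends on the scaling. Polh was not well above background on any D0 liver array, so it has no liver level. In D0 forestomachs it was -0.082, -0.93, -0.17, -0.19 and -0.63, above background on 2 of 5 arrays, and the 2 lower values belong to mice 2 and 5, on slide 3, so no fold between the tissues is given. At the other end, Ogg1, Ercc5, Msh6 and Rev1 had the smallest ranges of D0 means over the tissues on the authors' ratios, 0.19, 0.22, 0.26 and 0.28, and with median centring the ranges of these 4 genes were 1.41, 1.44, 2.14 and 1.12. In D0 forestomach Ogg1 and Rev1 were above background on 2 of 5 arrays and Ercc5 on 3 of 5, so these ranges order levels that rest in part on dim spots.

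**Figure D3:**
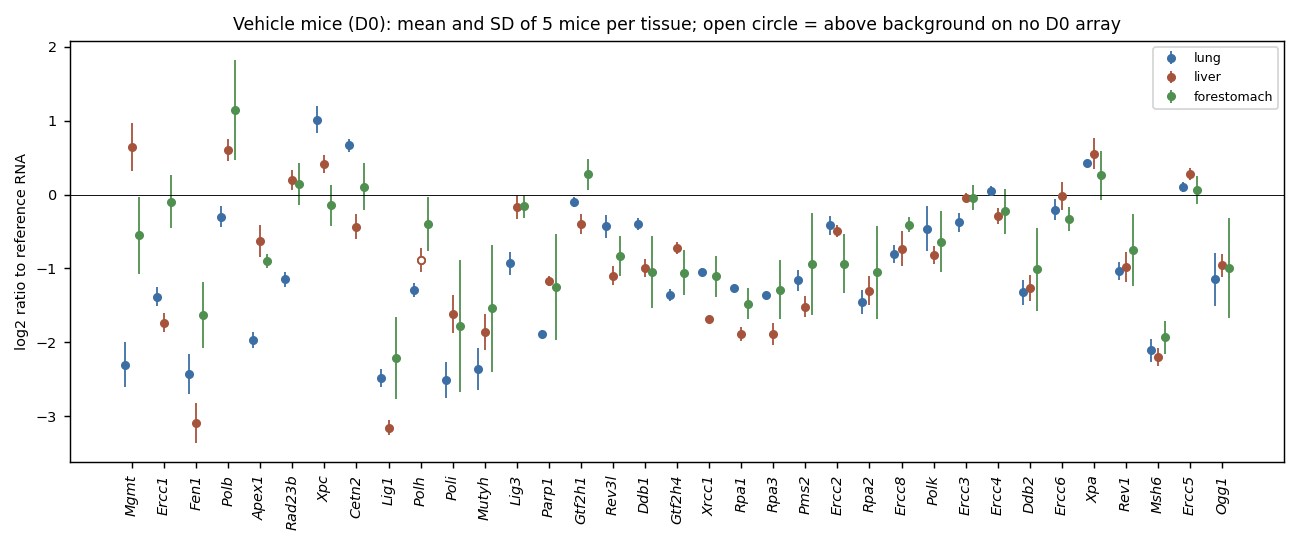
Mean log2 ratio to reference RNA with SD in the 5 D0 mice of each tissue, for the 35 members ordered by the range of the 3 means, on the authors' ratios. Mgmt, at the left, spans 2.95 from lung to liver, Ogg1, at the right, spans 0.19, and an open circle marks Polh in liver, above background on no D0 array.

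The third comparison asked whether the D3 effect differed between tissues. For lung minus forestomach, 1 of 35 members passed the limits, against 0.707% of all probes tested, and 4 had an unadjusted p of at most 0.05, against 12.9%. That member was Ercc5, whose D3 effect in lung minus its effect in forestomach was -0.62 (SE 0.16, adjusted p = 0.0402, limma). In D0 forestomach Ercc5 was above background on 3 of 5 arrays, so this difference rests in part on dim spots. Gtf2h1 followed at -0.58 (SE 0.16, adjusted p = 0.0559), outside both limits, and passed them without mouse 2 (-0.66, adjusted p = 0.038, limma) or mouse 18 (-0.69, adjusted p = 0.024). The Ercc5 call did not hold without lung mice 17 and 19 (-0.49, adjusted p = 0.260), without mouse 1, 2, 3, 4, 17 or 20 (-0.64 to -0.54, adjusted p = 0.0530 to 0.162), with loess recomputed (adjusted p = 0.073), with normexp (0.075), with median centring (1.00) or with a spread of its own for each tissue (0.115), and its direction was the same in all of these. It held without mouse 5, 16, 18 or 19 (adjusted p = 0.024 to 0.045) and with the mouse as a block (0.032). For lung minus liver, 0 members passed, against 0%, and for forestomach minus liver 0, against 0.0777%. At an unadjusted p of at most 0.05 the counts were 0 and 4, against 5.25% and 9.94%.

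The arrays also show how the members varied from mouse to mouse. Since the tissues came from the same animals (18 with lung, 19 with liver and forestomach), each member's deviations from its dose group means were set against each other between tissues, 103 relations in all. The median r over members was 0.14 for lung against liver (34 members), -0.071 for lung against forestomach (35) and 0.074 for liver against forestomach (34). In this order r was above 0 for 21, 17 and 23 members. The permutation p of r, adjusted over the 103 relations, was at most 0.05 for 2, 1 and 0 members. Mgmt and Ogg1, which were picked out after these values were seen, stood at the upper end. Between lung and forestomach Rev1 (r = 0.65) stood above Mgmt (0.60), and with slide means removed they were 0.18 and 0.51. Between lung and liver with slide means removed Ercc8 (0.69) stood above Mgmt (0.57).

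Mgmt correlated between lung and liver with r = 0.68 and rho = 0.76 over 18 mice (permutation p = 0.0012 and 0.0004, adjusted p = 0.042 and 0.014 over 103 relations). With slide means removed r was 0.57, and without the 2 mice farthest from the median it was 0.61. Between liver and forestomach r was 0.75 and rho 0.70 over 19 mice (permutation p = 0.0020 and 0.0052, adjusted p = 0.051 and 0.108), and between lung and forestomach r was 0.60 and rho 0.62 (adjusted p = 0.241 and 0.181). Mouse 5, a D0 animal, had the lowest Mgmt value of its group in each tissue (-2.68, 0.19 and -1.40), and D2 mouse 13 had the lowest of its own group (-3.02, 0.26 and -1.33). Read in each dye alone, r between lung and liver was 0.41 in the sample dye (Cy5) and 0.63 in the reference dye (Cy3). With slide means removed these were 0.58 and 0.38. The reference dye carries no RNA of these mice, and its part in the likeness was not tested.

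Ogg1 values in lung left a gap between -1.49 and -1.08, with 7 mice below it and 11 above, and the 7 came from every dose group (2, 1, 1 and 3 mice of D0 to D3). Because of this gap no pooled r with lung is given. Below the gap, r between lung and liver was 0.61 and rho 0.68 (7 mice), and above it 0.76 and 0.66 (11 mice), given as a description with no test. Between lung and forestomach r was 0.29 and rho 0.57 below, and r was 0.69 and rho 0.79 above. Between liver and forestomach r was 0.68 and rho 0.77 over 19 mice (adjusted p = 0.083 and 0.016), and r was 0.48 with slide means removed and 0.61 without the 2 farthest mice. In D0, mice 2 and 5 had the lowest Ogg1 values in lung (-1.52 and -1.55), liver (-1.14 and -1.05) and forestomach (-1.72 and -1.74). In D3, mouse 19 had the lowest in each (-2.21, -1.23 and -1.80) and mouse 18 the highest (-0.60, -0.57 and -0.41). In forestomach these low values went with the slide: the 7 arrays of slide 3, among them mice 2, 5 and 19, ran from -1.80 to -0.88, all below the 12 arrays of slides 1 and 2 (-0.84 to -0.080). Ogg1 was above background on 2 of 5 D0 forestomach arrays, and the part of slide and signal in this likeness was not tested beyond the value with slide means removed.

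**Figure D4:**
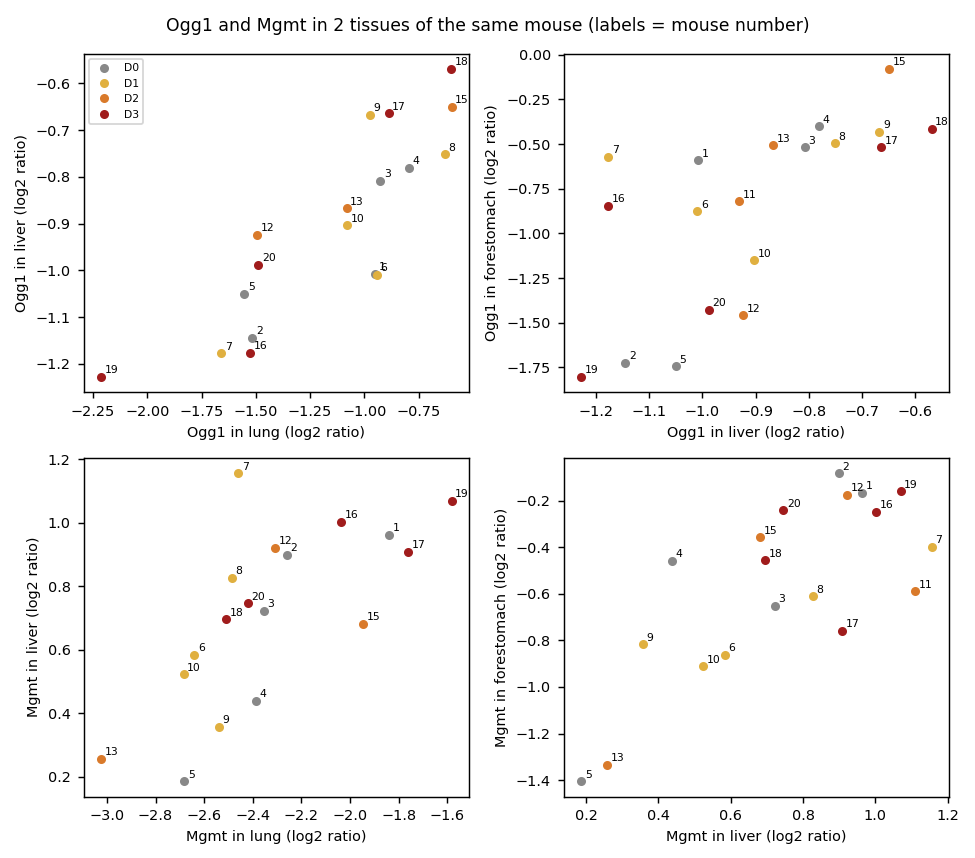
Ogg1 (top) and Mgmt (bottom) in lung against liver and in liver against forestomach of the same mice, as log2 ratios to reference RNA, with the mouse number beside each point and the dose group as its colour. Lung Ogg1 leaves a gap between -1.49 and -1.08, with 7 mice on its lower side drawn from all 4 dose groups.

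Fen1 and Lig1 also serve DNA replication, so they were read beside the mean of 25 proliferation genes, as deviations from dose group means (6 relations). Of the 25 genes, 20 in lung, 14 in liver and 15 in forestomach were above background on every array. On no array of the tissue were 1, 5 and 1 above it, so the list mean rests in part on dim spots. Fen1 followed the list in lung (r = 0.86, rho = 0.74, 18 arrays), liver (r = 0.79, rho = 0.74, 19 arrays) and forestomach (r = 0.85, rho = 0.82, 19 arrays), with adjusted permutation p-values of r of 0.00078, 0.00114 and 0.00078. With slide means removed r was 0.82, 0.70 and 0.66, without the 2 farthest arrays 0.75, 0.77 and 0.77, and within liver slides 1, 2 and 3 it was 0.84, -0.046 and 0.64. Lig1 followed the list in forestomach (r = 0.86, rho = 0.79, adjusted permutation p of 0.00198 and 0.00432). In lung its r was 0.57 and rho 0.51 (adjusted permutation p of 0.0209 and 0.056), without the 2 farthest arrays r was 0.53 (unadjusted permutation p = 0.0876), and with slide means removed it was 0.68, with 0.63 and 0.71 within slides 2 and 3. In liver its r of -0.56 (rho = -0.54, adjusted permutation p of 0.0302 and 0.0514) turned to 0.38 with slide means removed and was 0.48, -0.14 and 0.44 within slides, so the pooled value did not hold within slides. The 6 arrays of liver slide 3 had proliferation deviations below 0 and Lig1 deviations above 0.

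**Figure D5:**
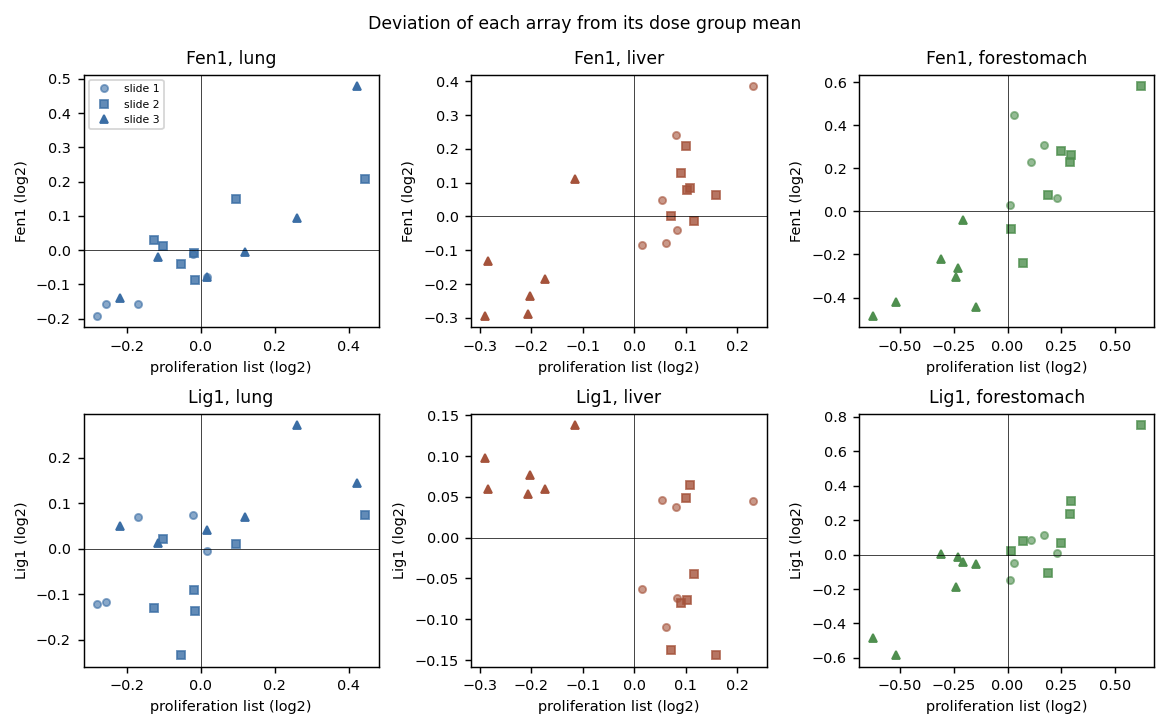
Fen1 (top) and Lig1 (bottom) against the mean of the proliferation list, both as deviations from dose group means in log2 units, for each array of lung, liver and forestomach, with the slide as the symbol. Fen1 rises along the list in each panel (r of 0.86, 0.79 and 0.85), while in liver the Lig1 points of slide 3 sit apart at the upper left.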

How the data were processed

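Two-colour Agilent microarrays were run on lung, liver and forestomach RNA. The authors labelled sample RNA with Cy5 and universal mouse reference RNA with Cy3, read spots with Feature Extraction 10.7.3.1 (per the submitters' notes and file headers) and deposited scanner intensity values, flags (other) and a table of log2 ratios. Per the methods these are LOWESS-normalised median signals without background subtraction. Against loess recomputed from the deposited intensity values, the deposited log2 ratios had r of at least 0.977 and slopes of 0.953 to 0.996 on each array. The ratios were sample over reference, with column medians of -0.046 to -0.020 over all probes.

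Of 55681 probes, 26413 (47.4%) were named through their RefSeq accession. Probes, named or not, were tested where Cy5 was well above background on at least 3 arrays of the tissue and no spot was flagged as non-uniform (31448 in lung, 24692 in liver, 27491 in forestomach). limma 3.58.1 in R 4.3.3 compared dose groups within a tissue, Benjamini-Hochberg adjusted over all probes tested, and was tested on simulated data. It stands in for the MAANOVA test of the study's methods. Tissue contrasts used all 56 arrays. Samples were grouped by their labels, 1 mouse each, and the number of arrays limits the precision. Exact permutation tests were two-sided over 252 splits. Relations used 100000 permutations within dose groups.

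D0 and D3 values of each mouse are given for Ddb2, Xpc, Polk, Polh, Rev1, Ogg1 and Mgmt where tested and, in the tissue concerned, for the 3 members with the lowest p at D3, and D0 values for the 4 with the largest D0 range between tissues. Most D1 and D2 values are plotted only. The members and lists were chosen with earlier results of these data known. Alternatives were other scalings, filters, blocks, covariates, probe choices and left-out mice. Same-numbered samples are tissues of 1 animal. The mouse block had a consensus correlation of 0.027 over arrays of one mouse.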

Additional observations from a re-analysis of the deposited data

Results flagged for a closer look

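Among 172 groups of 4 or 5 arrays examined for 16 members, 6 held 1 array far from the rest, where chance alone gives about 1 in 20. Ddb2 in forestomach of D3 mouse 19 was -1.08, against -0.79 to -0.67 in the other D3 mice. Ercc1 in forestomach of D2 mouse 12 was -0.73, against -0.51 to -0.48. Fen1 in lung of D0 mouse 5 was -1.95, against -2.59 to -2.51. Lig3 in lung of D1 mouse 7 was -0.998, against -0.93 to -0.92. Polb in forestomach of D0 mouse 3 was -0.028, against 1.30 to 1.69. Rpa1 in liver of D0 mouse 3 was -1.72, against -1.95 to -1.92. The D3 effect on Ercc5 differed between lung and forestomach by -0.62, past the limits in the fit of all 56 arrays, in 4 of 10 fits with 1 mouse left out and with the mouse as a block, and not in the other alternatives given with it above.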

How the results depend on the processing

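In all, 75 results gave 1824 recomputed values, of which 1670 kept their direction and their side of the limit, or stayed within 1.5 times the main count. The counts past both limits were 0 for each dose and for the trend in each tissue under every alternative run. With 1 mouse left out at a time, the D3 count at an unadjusted p of at most 0.05 ran from 4 to 6 in lung, 0 to 2 in liver and 1 to 6 in forestomach, where it was 1 without mouse 20 and 3 without mouse 1, 13, 15 or 17. In liver it was 2 without mouse 3 or 20 and 1 without mouse 9, 17 or 19. The members inside the 1.5-fold interval ran from 31 to 34, 33 to 34 and 12 to 19, and the member medians from -0.063 to -0.0098, 0.0055 to 0.049 and -0.023 to 0.18. Members that differed between D0 tissues ran from 14 to 17 (lung and liver), 5 to 9 (forestomach and liver, 9 without mouse 2) and 10 to 15 (lung and forestomach). Members whose D3 effect differed between lung and forestomach ran from 0 (without mouse 1, 4, 17 or 20) to 2 (without mouse 18). Without mouse 3 the count was not 0 although Ercc5 did not pass there, so it rests on another member, not named here. With the mouse as a replicate block the counts of members that differed between D0 tissues, and the 1 member whose D3 effect differed, stayed within 1.5 times of the main counts, and Ercc5 was -0.62 with an adjusted p of 0.032.

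Median centring in place of the intensity correction moved the member median at D3 to 0.16 in lung (0.11 over all probes) and 0.43 in forestomach (0.18 over all probes), the forestomach counts to 0 at an unadjusted p and 2 inside the interval, the D0 counts to 3 (forestomach and liver) and 29 (lung and forestomach), and the interaction count to 0. At D1 in lung it moved the count at an unadjusted p from 1 to 20, at D2 it gave 0 in liver and 0 in forestomach, and for the trend it gave 2, 0 and 0 in lung, liver and forestomach. It turned Xpc (0.074), Rev1 (0.024) and Ercc4 (0.081) in lung, Rev1 (-0.010) and Ogg1 (-0.0013) in liver, and Ogg1 (0.22) and Ercc1 (0.045) in forestomach. On 50 of 56 arrays the column of the slide matched the dose step. With column as a covariate the lung counts were 2 at an unadjusted p and 3 inside the interval, the liver count 1, and the forestomach count inside the interval 2, and these turned: Ddb2 (-0.054), Xpc (0.19), Polh (0.099), Rev1 (0.36), Ogg1 (0.28) and Gtf2h1 (0.45) in lung, Mgmt (-0.060) in liver, and Polh (0.058), Ogg1 (0.48) and Mgmt (-0.17) in forestomach. Dose and column can hardly be told apart here. The liver count was 1 with loess recomputed, normexp, slide as a block or only the 2 groups compared. The forestomach count was 2 with probes above background on every array or with only the 2 groups compared, and 29 members lay inside the interval with slide as a block, which turned Ogg1 (0.041). Array weights turned Xpc (-0.037), Polk (-0.059), Ogg1 (0.026) and Mgmt (-0.057) in forestomach. The forestomach count at D2 was 9 with array weights, 7 with slide as a block and 2 with only the groups compared, the lung count at D2 was 2 with slide as a block, column as a covariate or only the groups compared, and the lung trend count was 3 with array weights and 0 with column as a covariate. With 1 mouse left out, the counts at D2 ran from 1 to 5 in lung (1 without mouse 12 or 15, 2 without mouse 2 or 5), 1 to 3 in liver (3 without mouse 2, and 2 without mouse 3, 7, 11, 12, 18 or 20) and 1 to 7 in forestomach (7 without mouse 3, 2 without mouse 1, 1 without mouse 13). The trend counts ran from 3 to 8 in lung (3 without mouse 2), 0 to 2 in liver (0 without mouse 1, 5 or 18, and 1 without mouse 2 or 16) and 4 to 7 in forestomach, and the D1 counts from 0 to 2, 0 to 1 and 0 to 2. The other shifts in these counts were of 1 or 2 members. Averaging a gene's probes turned Polk in lung (-0.015) and forestomach (-0.050), and normexp turned Ogg1 in liver (-0.024). Without mice 17 and 19, the lung count at an unadjusted p was 3, Xpc turned to 0.048 and Mgmt to -0.017. The interaction count was 0 with loess recomputed, normexp, a spread for each tissue, or without those 2 lungs. Leaving out 1 mouse turned Polk in lung (-0.049 to 0.21), Ogg1 in lung (-0.38 to 0.021), liver (-0.056 to 0.11) and forestomach (-0.19 to 0.19), and Xpc (-0.063 to 0.12), Polk (-0.042 to 0.18), Rev1 (-0.013 to 0.27) and Mgmt (-0.032 to 0.30) in forestomach. Lig1 against the proliferation list was 0.53 in lung and -0.49 in liver without the 2 farthest arrays, both past the limit no longer, and 0.38 in liver with slide means removed. The cause of these shifts was not tested. The low signal in forestomach, where 6 members were above background on 9 or fewer arrays, limits what can be seen there.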

Other observations

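The likeness of Ogg1 and of Mgmt between tissues of one mouse was also read in each dye alone, scaled to the array's upper quartile and chosen after the ratios were seen, as values with no test. For Ogg1, r for liver against forestomach was 0.63 in the sample dye (Cy5) and -0.067 in the reference dye (Cy3). With slide means removed these were 0.53 and 0.33. For Mgmt, r for lung against liver, lung against forestomach and liver against forestomach was 0.41, 0.13 and 0.38 in Cy5 and 0.63, 0.24 and 0.22 in Cy3. For Mgmt with slide means removed they were 0.58, 0.53 and 0.63 in Cy5 and 0.38, 0.19 and 0.32 in Cy3.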
